A study of Mus musculus with 7 samples.

Results

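The genes described are the Toll-like receptors Tlr1 to Tlr9 and Cd14, in mouse macrophages grown from bone marrow. They were chosen by name: each probe set whose single gene symbol was on that list was taken, and where a gene had several, the brightest on average over the 7 arrays stands for it. All 10 genes were found, of 18193 genes with such a probe set, and they had 16 of the 45101 probe sets. Every one of the 10 chosen probe sets lay above the median of its array on all 7 arrays. That is a low bar, which the B cell marker Pax5 also passed on all 7 arrays, at 6.32 to 6.61.

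Expression was measured on Affymetrix arrays after a first step of 24 h and a second step of 3 h. The 7 groups were Pam3CSK4 then Pam3CSK4, Pam3CSK4 then MDP, MDP then Pam3CSK4, MDP then MDP, naive cells given Pam3CSK4, naive cells given MDP, and unstimulated naive cells, where naive means 24 h without a ligand. The labels give the same amount in both steps, written as 10 mg/ml for MDP and 1 mg/ml for Pam3CSK4. That unit is given as the labels write it and is in doubt. The labels name neither a strain nor an age. Each group was 1 array, no pretreated culture was left without a second ligand, and the label of every array carries replicate number 2. A difference is therefore between 2 arrays, has no replicate check and no test, and precision is limited by the number of arrays. Values are log2 expression, a difference is the first group minus the second on that scale, and a fold is 2 to the power of that difference.

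Toll-like receptors are membrane proteins that bind microbial molecules and pass the signal on through adaptor proteins with a shared domain. Tlr1, Tlr2, Tlr4, Tlr5 and Tlr6 act at the cell surface. Tlr2 pairs with Tlr1 to bind triacylated lipopeptides and with Tlr6 to bind diacylated ones, Tlr4 binds lipopolysaccharide, and Tlr5 binds flagellin. Tlr3, Tlr7, Tlr8 and Tlr9 sit in endosomes. There Tlr3 binds double-stranded RNA, Tlr7 single-stranded RNA and its breakdown products, and Tlr9 DNA with unmethylated CpG. Cd14 is a surface protein that hands lipopolysaccharide and lipopeptides to the receptors. Pam3CSK4 is a synthetic triacylated lipopeptide and so a ligand of Tlr2 with Tlr1. MDP, muramyl dipeptide, is a piece of bacterial cell wall that is sensed inside the cell through Nod2.

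Tlr1 and Tlr6 are neighbouring genes on chromosome 5, and Tlr7 and Tlr8 are neighbours on the X chromosome. RefSeq (GRCm38.p6) gave promoter windows for 7 of the 10 genes. The 250 bases before the start are shown for those of them that passed a fold threshold in some comparison below, since their transcripts differed most between arrays. Matches to 4 motifs searched on both strands are in capitals: NF-kB, ISRE (GAAA and GAAA parted by any 2 bases), GAS (TTCNNNGAA) and PU.1 (GAGGAAG).
Tlr2, chr3:83841609-83841858, minus strand, NF-kB: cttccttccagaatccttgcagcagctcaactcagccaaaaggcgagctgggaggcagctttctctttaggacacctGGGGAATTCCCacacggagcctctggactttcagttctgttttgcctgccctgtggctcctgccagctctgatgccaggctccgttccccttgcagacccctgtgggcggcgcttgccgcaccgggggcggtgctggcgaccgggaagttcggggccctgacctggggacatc
Tlr1, chr5:64933559-64933808, minus strand, PU.1: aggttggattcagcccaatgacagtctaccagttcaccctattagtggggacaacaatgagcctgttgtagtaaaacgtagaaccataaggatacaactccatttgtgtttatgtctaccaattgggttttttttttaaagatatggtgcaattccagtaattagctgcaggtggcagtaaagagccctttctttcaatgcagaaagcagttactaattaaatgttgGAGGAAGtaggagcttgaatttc
Tlr6, chr5:64959167-64959416, minus strand, ISRE: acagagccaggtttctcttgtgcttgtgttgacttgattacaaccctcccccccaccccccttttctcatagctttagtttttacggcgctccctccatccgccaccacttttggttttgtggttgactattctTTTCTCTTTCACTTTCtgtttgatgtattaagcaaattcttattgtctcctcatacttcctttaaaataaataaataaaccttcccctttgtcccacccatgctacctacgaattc
Tlr3, chr8:45410381-45410630, minus strand, NF-kB: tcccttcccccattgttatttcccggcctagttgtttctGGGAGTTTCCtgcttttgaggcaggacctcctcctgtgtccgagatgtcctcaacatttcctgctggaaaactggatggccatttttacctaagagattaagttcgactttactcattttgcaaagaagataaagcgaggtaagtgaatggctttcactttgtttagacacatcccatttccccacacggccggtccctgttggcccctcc
Tlr8, chrX:167264330-167264579, minus strand, GAS: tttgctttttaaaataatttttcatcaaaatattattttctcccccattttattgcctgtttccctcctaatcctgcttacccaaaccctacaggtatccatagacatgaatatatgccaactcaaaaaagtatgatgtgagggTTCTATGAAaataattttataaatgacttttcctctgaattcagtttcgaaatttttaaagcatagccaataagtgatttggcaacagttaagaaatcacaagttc
The Tlr2 match can be read as overlapping NF-kB motifs in adjacent registers. The Tlr6 matches are overlapping ISRE motifs on the opposite strand, and they lie in the window of 1 of its 2 RefSeq starts. The other Tlr6 window held none of the motifs, and the other Tlr1 window held a GAS match and no PU.1 match. Of the windows not printed, that of Tlr5 held none of the motifs and that of Tlr9 a PU.1 match. Over the 32851 windows of all genes, the NF-kB motif was in 7.25%, ISRE in 2.98%, GAS in 7.02% and PU.1 in 10.6%. A match is a run of letters and not a shown binding site.

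The members fell into groups by their pattern over the arrays. The lipopeptide receptor genes Tlr2, Tlr1 and Tlr6 stood highest on the 2 arrays where cells first met Pam3CSK4 at the second step, and Tlr4 stood lowest on those same arrays. Tlr3 and Tlr8 instead stood highest on the arrays pretreated with Pam3CSK4, and in naive cells given either ligand for 3 h both genes differed from unstimulated by at most 0.35. Cd14 and Tlr9 spanned less than 2-fold over all 7 arrays, as did Tlr5 and Tlr7.

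**Figure D1:**
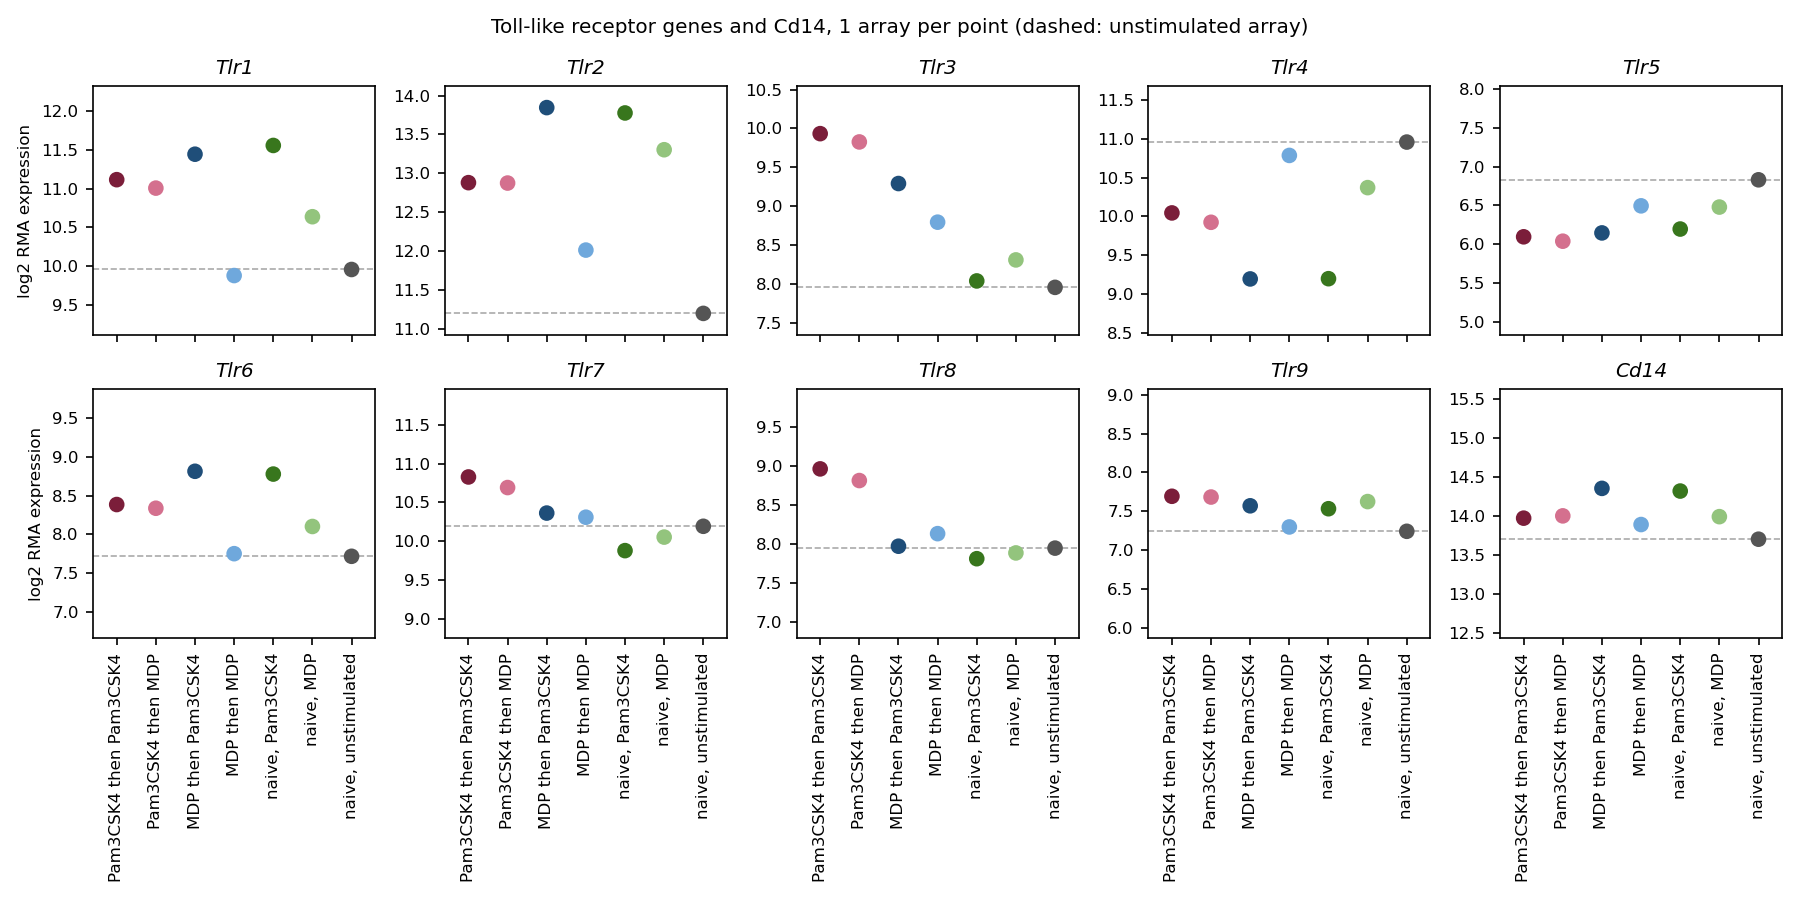
Log2 expression (y axis, a span of 3.2 log2 units in every panel) of the 10 genes on the 7 arrays (x axis), 1 point per array, with the unstimulated array as a dashed line. Tlr2 sits between 12.01 and 13.85 on the stimulated arrays, all above 11.20 in unstimulated cells, and Tlr4 between 9.20 and 10.78, all below 10.96.

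The 2 arrays pretreated with Pam3CSK4 were the closest of the 15 pairs compared. Over all genes, 95% differed by less than 0.28 between them, and the chosen probe sets of the members by at most 0.15. These arrays also differ in their second ligand, so this is a yardstick for the smallest spread seen and not a replicate error. Neighbouring values of a gene that are less than 0.28 apart are therefore not put in order. In whole cultures, less RNA of a gene per cell and fewer cells of a type that makes it cannot be told apart.

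Tlr2 encodes the shared partner of the lipopeptide receptors. Its log2 values were 12.88 with Pam3CSK4 and 12.88 with MDP after Pam3CSK4 pretreatment, 13.85 with Pam3CSK4 and 12.01 with MDP after MDP pretreatment, 13.78 with Pam3CSK4 and 13.30 with MDP in naive cells, and 11.20 in unstimulated naive cells. The arrays with a first exposure to Pam3CSK4 at the second step, with or without MDP before, had the top values, which differed by 0.07. Both Pam3CSK4-pretreated arrays lay together below them. The unstimulated array was lowest, with MDP then MDP the next.

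Against unstimulated cells Tlr2 was 5.96-fold higher in naive cells given Pam3CSK4, where 86 of the 18193 genes stood higher. It was 6.25-fold higher in MDP then Pam3CSK4, 3.21-fold in Pam3CSK4 then Pam3CSK4 and 3.19-fold in Pam3CSK4 then MDP. In naive cells given MDP, 22 genes stood higher than Tlr2. With MDP then MDP it was 1.76-fold higher than unstimulated, and so short of 3-fold.

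Tlr1 encodes the partner that Tlr2 needs for triacylated lipopeptides. It stood at 11.11 with Pam3CSK4 and 11.01 with MDP after Pam3CSK4 pretreatment, 11.44 with Pam3CSK4 and 9.88 with MDP after MDP pretreatment, 11.55 with Pam3CSK4 and 10.64 with MDP in naive cells, and 9.96 in unstimulated naive cells. The 4 arrays that had met Pam3CSK4 in either step were the highest, naive cells given MDP came between, and MDP then MDP lay with the unstimulated array. Tlr1 was 3.02-fold higher in naive cells given Pam3CSK4 than in unstimulated cells (1.59 on the log2 scale), only just past 3-fold. It was at 1.55, short of 3-fold, with the arrays centred on their medians, and at 1.56 with 32 added to the linear values.

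Tlr6 encodes the partner for diacylated lipopeptides. Its values were 8.38 with Pam3CSK4 and 8.34 with MDP after Pam3CSK4 pretreatment, 8.81 with Pam3CSK4 and 7.75 with MDP after MDP pretreatment, 8.78 with Pam3CSK4 and 8.10 with MDP in naive cells, and 7.72 in unstimulated naive cells. Apart from neighbours too close for an order, the arrays ran as for Tlr1, over a span of 2.13-fold in place of 3.19-fold. Tlr6 was 2.08-fold higher in naive cells given Pam3CSK4 than in unstimulated cells, and 2.13-fold higher in MDP then Pam3CSK4, both short of 3-fold.

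Tlr4 went the other way. The lipopolysaccharide receptor gene had 10.05 with Pam3CSK4 and 9.93 with MDP after Pam3CSK4 pretreatment, 9.20 with Pam3CSK4 and 10.78 with MDP after MDP pretreatment, 9.20 with Pam3CSK4 and 10.37 with MDP in naive cells, and 10.96 in unstimulated naive cells. The pair of arrays on which cells first met Pam3CSK4 at the second step were lowest, the Pam3CSK4-pretreated arrays lay between, and MDP then MDP was close to unstimulated. Against unstimulated cells Tlr4 was 3.38-fold lower in naive cells given Pam3CSK4, where 78 genes stood lower, and 3.38-fold lower in MDP then Pam3CSK4. In Pam3CSK4 then MDP it was 2.04-fold lower and in Pam3CSK4 then Pam3CSK4 1.88-fold lower.

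Tlr4 had 4 probe sets. Of these 1418162_at, 1418163_at and 1442827_at lay above the array median on all 7 arrays, and they differed from unstimulated by -1.76, -1.66 and -1.20 in naive cells given Pam3CSK4. In MDP then Pam3CSK4 they were at -1.76, -1.54 and -1.38. The fourth, 1430695_at, lay below the median on every array, between 3.67 and 4.08. The mean over all 4 was -1.14 in naive cells given Pam3CSK4 and -1.15 in MDP then Pam3CSK4, both short of 3-fold.

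Tlr5, the flagellin receptor gene, had its highest value in unstimulated naive cells. It was at 6.10 with Pam3CSK4 and 6.04 with MDP after Pam3CSK4 pretreatment, 6.15 with Pam3CSK4 and 6.50 with MDP after MDP pretreatment, 6.20 with Pam3CSK4 and 6.48 with MDP in naive cells, and 6.83 in unstimulated naive cells. The 4 arrays that had met Pam3CSK4 were the lowest and lay within 0.16 of each other. The widest difference, Pam3CSK4 then MDP against unstimulated, was 1.73-fold lower. These values were about as low as those of the B cell marker Pax5 (6.32 to 6.61) and the neutrophil marker Elane (6.62 to 6.84). Whether Tlr5 was expressed is therefore not settled.

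Cd14 had values of 13.97 with Pam3CSK4 and 14.00 with MDP after Pam3CSK4 pretreatment, 14.36 with Pam3CSK4 and 13.89 with MDP after MDP pretreatment, 14.32 with Pam3CSK4 and 13.99 with MDP in naive cells, and 13.70 in unstimulated naive cells. Its 2 highest arrays were those highest for Tlr2, and the whole span was 1.57-fold. The value on every array was close to the top of the scale, where the highest probe set stood at 15.1.

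Among the endosomal receptors, Tlr3 stood higher on the pretreated arrays, each of which also had a second ligand. It was at 9.93 with Pam3CSK4 and 9.83 with MDP after Pam3CSK4 pretreatment, 9.29 with Pam3CSK4 and 8.80 with MDP after MDP pretreatment, 8.04 with Pam3CSK4 and 8.31 with MDP in naive cells, and 7.96 in unstimulated naive cells. All 4 pretreated arrays lay above all 3 naive arrays, and the Pam3CSK4-pretreated pair above the MDP-pretreated pair. Against unstimulated cells Tlr3 was 3.93-fold higher in Pam3CSK4 then Pam3CSK4, 3.65-fold in Pam3CSK4 then MDP, 2.52-fold in MDP then Pam3CSK4 and 1.79-fold in MDP then MDP.

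That probe set of Tlr3, 1422782_s_at, is of a kind that can match more than 1 transcript. The other one, 1422781_at, had 7.89 with Pam3CSK4 and 7.54 with MDP after Pam3CSK4 pretreatment, 7.11 with Pam3CSK4 and 6.99 with MDP after MDP pretreatment, 6.24 with Pam3CSK4 and 6.08 with MDP in naive cells, and 6.13 in unstimulated naive cells. It kept the pretreated arrays above the naive ones. Its differences from unstimulated were smaller in Pam3CSK4 then Pam3CSK4 (1.77) and Pam3CSK4 then MDP (1.42), of which the second is short of 3-fold. In MDP then Pam3CSK4 it was at 0.98 and in MDP then MDP at 0.87, against 1.33 and 0.84 by the chosen probe set.

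Tlr8 stood apart only after Pam3CSK4 pretreatment. Its values were 8.96 with Pam3CSK4 and 8.81 with MDP after Pam3CSK4 pretreatment, 7.97 with Pam3CSK4 and 8.13 with MDP after MDP pretreatment, 7.81 with Pam3CSK4 and 7.88 with MDP in naive cells, and 7.95 in unstimulated naive cells. The other 5 arrays spanned 0.32 on the log2 scale. Against unstimulated cells it was 2.03-fold higher in Pam3CSK4 then Pam3CSK4 and 1.83-fold higher in Pam3CSK4 then MDP.

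For Tlr7 the probe sets disagreed. The chosen one, 1422010_at, stood at 10.83 with Pam3CSK4 and 10.69 with MDP after Pam3CSK4 pretreatment, 10.36 with Pam3CSK4 and 10.31 with MDP after MDP pretreatment, 9.88 with Pam3CSK4 and 10.06 with MDP in naive cells, and 10.19 in unstimulated naive cells. It was 1.55-fold higher in Pam3CSK4 then Pam3CSK4 than in unstimulated cells (0.63 on the log2 scale), while 1449640_at and 1419848_x_at were at -0.44 and -0.54 in the same comparison. Both of these are listed under accession AI604175 and the chosen set under AY035889, and the direction for Tlr7 after Pam3CSK4 pretreatment is therefore unsettled.

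Tlr9, the receptor gene for CpG DNA, was at 7.69 with Pam3CSK4 and 7.68 with MDP after Pam3CSK4 pretreatment, 7.57 with Pam3CSK4 and 7.30 with MDP after MDP pretreatment, 7.53 with Pam3CSK4 and 7.63 with MDP in naive cells, and 7.24 in unstimulated naive cells. Its whole span was 1.37-fold. MDP then MDP and the unstimulated array had the lowest values, and the other 5 lay within 0.16 of each other, too close to MDP then MDP for an order.

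**Figure D2:**
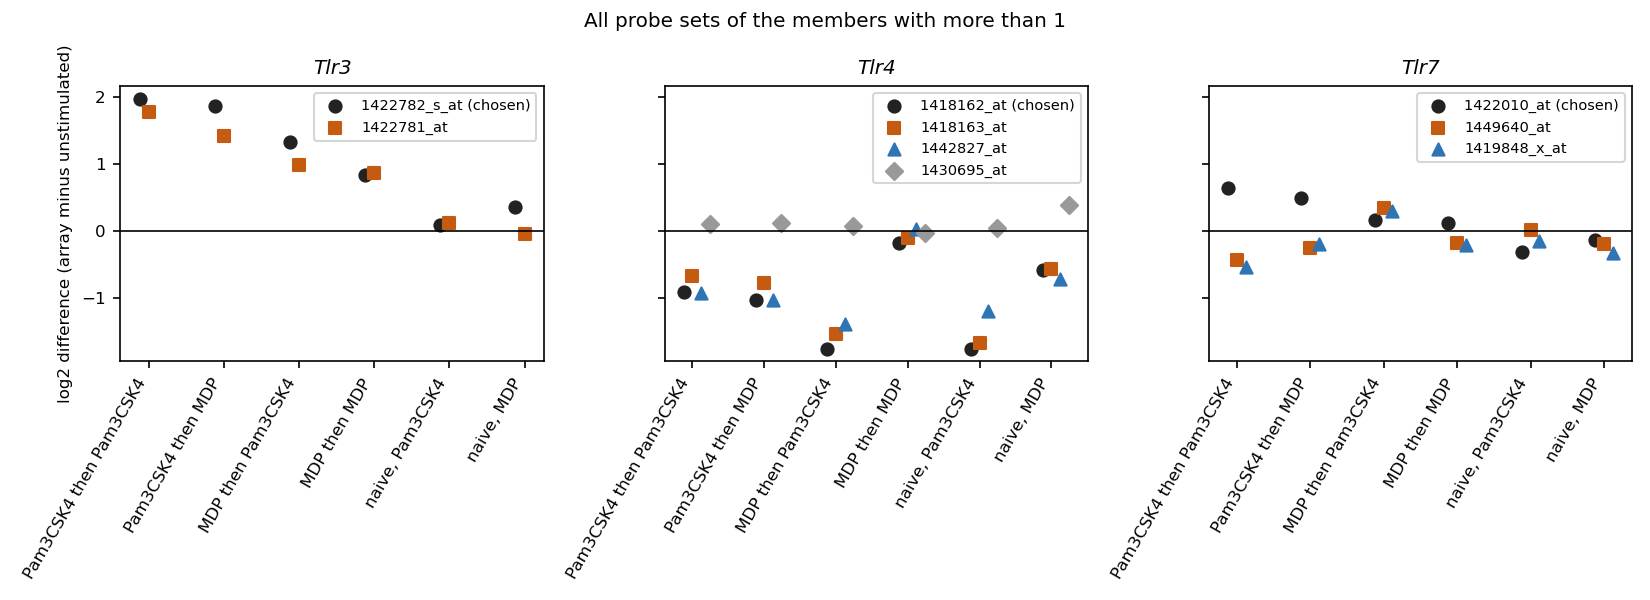
Log2 difference of each stimulated array from the unstimulated array (y axis) for every probe set of Tlr3, Tlr4 and Tlr7, with arrays on the x axis and 1 marker per probe set. Both Tlr3 sets lie at 0.84 or more on the 4 pretreated arrays, 3 of the 4 Tlr4 sets go together, and the chosen Tlr7 set at 0.63 in Pam3CSK4 then Pam3CSK4 is opposite to the others at -0.44 and -0.54.

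The first question is which genes stood 3-fold apart from unstimulated cells in naive cells given each ligand. In naive cells given Pam3CSK4, 2 of the 10 members (Tlr2 and Tlr1) stood at least 3-fold above unstimulated cells, against 1.28% of all genes, and 1 was at least 3-fold lower (Tlr4), against 0.605%. In naive cells given MDP, 1 was higher (Tlr2), against 0.22% of all genes, and none was lower, against 0.0055%. The member medians were 0.19 with Pam3CSK4 and 0.32 with MDP, and the median of all genes was 0.00 in both comparisons. Both comparisons use the same unstimulated array.

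Set directly against each other, naive cells given Pam3CSK4 had Tlr4 2.25-fold lower than naive cells given MDP. It was the 1 member past 2-fold, where 0.709% of all genes were 2-fold lower. By 1418163_at Tlr4 was at -1.10 and by 1442827_at at -0.49, the second short of 2-fold. The mean of its probe sets was -0.77, also short of 2-fold. None of the members was 2-fold higher, against 1.4% of all genes. Tlr1 was 1.89-fold higher with Pam3CSK4, Tlr6 1.59-fold and Tlr2 1.39-fold.

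**Figure D3:**
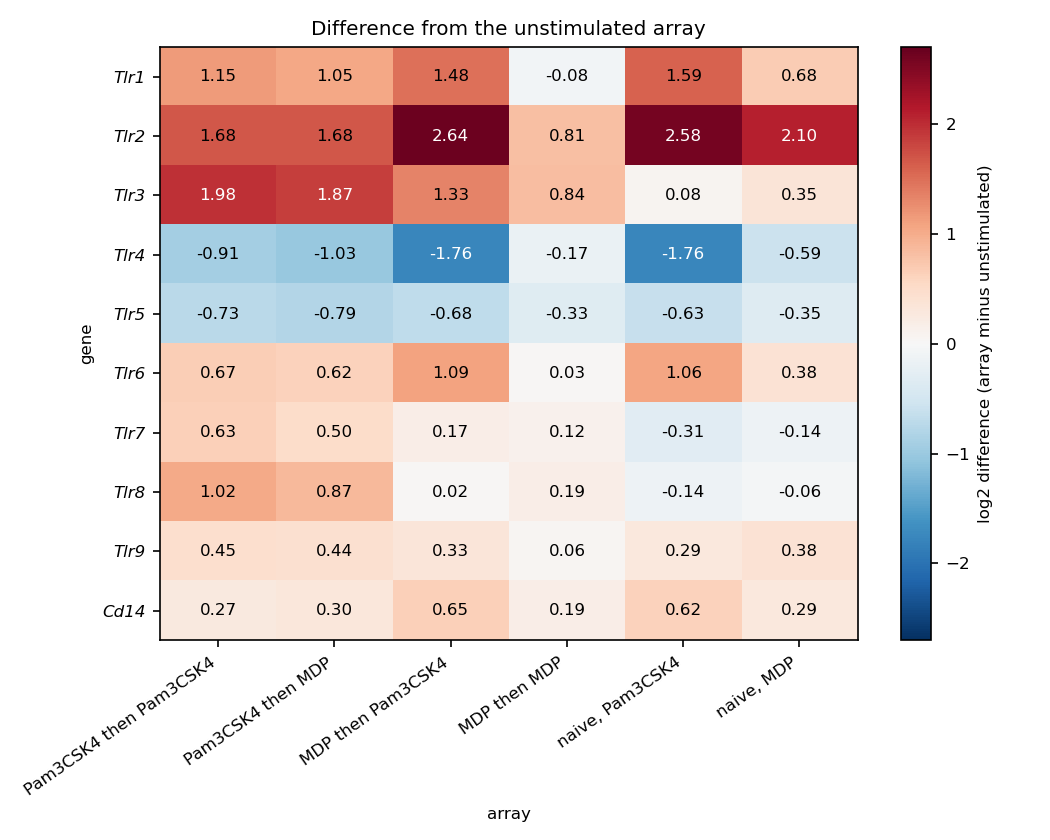
Log2 difference of the 6 stimulated arrays (columns) from the unstimulated array for the 10 genes (rows), with the value in each cell and red for higher. Tlr1, Tlr2 and Tlr6 are reddest in MDP then Pam3CSK4 and in naive cells given Pam3CSK4, where Tlr4 is at -1.76 in both, and Tlr3 is reddest in the columns pretreated with Pam3CSK4 (1.98 and 1.87).

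The second question is how pretreated cells given a ligand stood against naive cells given it, at a threshold of 2-fold. After MDP and then MDP, Tlr2 stood 2.44-fold below naive cells given MDP, the 1 member past 2-fold of 10, where 0.291% of all genes were. In that comparison 27 genes stood lower than Tlr2. None of the members was 2-fold higher, against 0.385% of all genes. Tlr1 was next at -0.76, followed by Tlr6 at -0.35, Tlr9 at -0.33 and Cd14 at -0.10, while Tlr3 was at 0.48 and Tlr4 at 0.41.

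After Pam3CSK4 and then Pam3CSK4, no member stood 2-fold below naive cells given Pam3CSK4, where 2.3% of all genes were. Tlr2 was at -0.90, Tlr1 at -0.44, Tlr6 at -0.39 and Cd14 at -0.35. Tlr3 (3.71-fold) and Tlr8 (2.23-fold) were 2-fold higher, 2 of 10 members against 2.41% of all genes, and Tlr7 was at 0.95 by its chosen probe set and 0.04 by the mean of its probe sets. Tlr4 was 0.85 above naive cells given Pam3CSK4, and still below unstimulated cells.

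Cells pretreated with the other ligand were compared in the same way. In Pam3CSK4 then MDP, Tlr3 was 2.86-fold higher than in naive cells given MDP, the 1 member of 10 past 2-fold, where 2.14% of all genes were. None was 2-fold lower, against 1.71% of all genes. Tlr8 was at 0.93, Tlr1 at 0.37 and Tlr2 at -0.43.

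In MDP then Pam3CSK4, Tlr2 differed from naive cells given Pam3CSK4 by 0.07 and Tlr4 by -0.00. Apart from Tlr3 and Tlr7, the member furthest from those cells was Tlr8 at 0.16. Most genes on these arrays were as close, with a median absolute difference of 0.098 over all genes. Tlr3 was 2.38-fold higher (0.87 by its other probe set, which is short of 2-fold), 1 of 10 members against 0.297% of all genes, and Tlr7 was at 0.48. No member was 2-fold lower, against 0.022% of all genes.

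**Figure D4:**
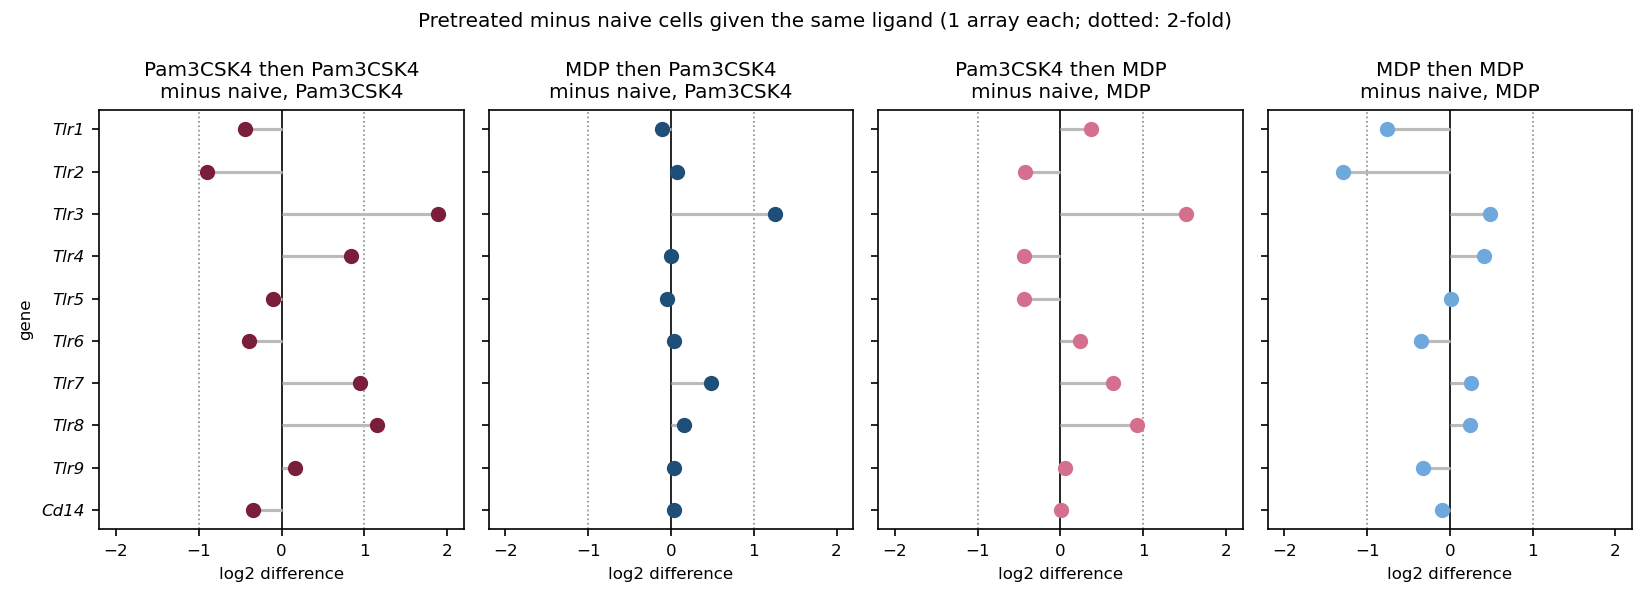
Log2 difference (x axis) between pretreated and naive cells given the same ligand, for the 10 genes (y axis), in 4 panels of 1 array against 1, with dotted lines at 2-fold. Tlr2 lies beyond the lower line in MDP then MDP alone (-1.29), and Tlr3 lies beyond the upper line in the other 3 panels (1.89, 1.25 and 1.52).

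After MDP pretreatment, some members differed between the arrays given different second ligands. In MDP then Pam3CSK4, Tlr2 was 3.56-fold, Tlr1 2.95-fold and Tlr6 2.08-fold higher than in MDP then MDP, 3 of 10 members, against 2.41% of all genes, though Tlr6 fell short (0.96) with 32 added to the linear values. Tlr4 was 3.00-fold lower, 1 of 10 against 1.42%. Tlr3 was at 0.50 by its chosen probe set and 0.11 by 1422781_at. After Pam3CSK4 pretreatment the same contrast gave no member 2-fold apart, where 0% of all genes were 2-fold higher and 0.0055% lower. All 10 chosen probe sets were within 0.15, and the median absolute difference over all genes was 0.075. Among the other probe sets, Tlr3 1422781_at was at 0.35 and Tlr7 1419848_x_at at -0.34.

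Under a second MDP, Pam3CSK4-pretreated cells had Tlr1 2.18-fold and Tlr3 2.04-fold higher than MDP-pretreated cells, 2 of 10 members, against 1.91% of all genes, and Tlr3 fell short by its other probe set (0.55). None was 2-fold lower by its chosen probe set, against 2.06%. Tlr4 was the lowest member at -0.86, with 1418163_at at -0.68 and 1442827_at at -1.07, the last past 2-fold. Under a second Pam3CSK4, no member was 2-fold apart, with Tlr8 at 0.99 and Tlr2 at -0.96 the nearest, where 1.34% of all genes were 2-fold higher and 2.41% lower. With the arrays centred on their medians Tlr2 was at -1.01, just past 2-fold.

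Against unstimulated cells, Tlr3 and Tlr2 were at least 3-fold higher in Pam3CSK4 then Pam3CSK4, 2 of 10 members against 1.37% of all genes, and the same 2 in Pam3CSK4 then MDP, against 1.42%. None was 3-fold lower on those arrays, against 0.72% and 0.726% of all genes. Tlr2 was the 1 member 3-fold higher in MDP then Pam3CSK4, against 1.79% of all genes, and Tlr4 the 1 that was 3-fold lower, against 0.484%. In MDP then MDP no member was past 3-fold, where 0.126% of all genes were higher and 0.011% lower. The largest member differences there were Tlr3 at 0.84 and Tlr2 at 0.81.

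The genes whose pattern over the 7 arrays was most like each member's were taken as the 3 with the highest Pearson r, among 1906 other genes that spanned at least 1 log2 unit and lay above the array median somewhere. For Tlr2 they were Marcksl1 (r = 0.993), Gpr84 (0.993) and Slc7a2 (0.981). For Tlr1 they were Mcoln2 (0.995), Slc39a13 (0.995) and Socs3 (0.989), and for Tlr6 Jak2 (0.998), Rhbdf2 (0.997) and Socs3 (0.994). Tlr4 was most like Rap2a (0.997), Nceh1 (0.997) and 2900026A02Rik (0.996). Tlr3 was most like Mov10 (0.998), Pml (0.997) and Tdrd7 (0.993), and Tlr8 like Plekhg1 (0.996), Hexim1 (0.995) and Acss2 (0.995). The points share arrays and normalization, and r takes no account of the size of the change.

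Other genes of the pathway are counted at 2-fold against unstimulated cells, which 2.27% of all genes passed on the higher side and 1.95% on the lower side in naive cells given Pam3CSK4, and 0.583% and 0.17% in naive cells given MDP. Of 3 measured Toll-like receptor relatives, 1 was 2-fold lower in naive cells given Pam3CSK4 and none was higher. Tlr13, an endosomal receptor for bacterial ribosomal RNA in mice, was at -1.33 in naive cells given Pam3CSK4, -1.35 in MDP then Pam3CSK4 and -0.09 in Pam3CSK4 then Pam3CSK4. Tlr12 and Cd180, a Toll-like receptor homologue, were within 2-fold in every comparison. Of 9 measured coreceptor and ligand transfer genes, none was 2-fold apart from unstimulated in naive cells given Pam3CSK4 or MDP. Ly96, the partner of Tlr4 in binding lipopolysaccharide, was at 0.64 in naive cells given Pam3CSK4, opposite in sign to Tlr4. Trem2, a lipid receptor, was at -1.12 in Pam3CSK4 then Pam3CSK4 and -1.11 in Pam3CSK4 then MDP, and Trem1, an amplifier of myeloid activation, at 1.06 in MDP then MDP.

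Of 15 measured folding, trafficking and cleavage genes, 1 was 2-fold lower in naive cells given Pam3CSK4 than in unstimulated cells, and none was 2-fold higher. The lower one was Rab7b (-1.06), a small GTPase of endosomal traffic. Unc93b1, which carries the endosomal receptors out of the endoplasmic reticulum, was at 0.32 in Pam3CSK4 then Pam3CSK4. Of 9 measured adaptors and first kinases, 1 was 2-fold higher in naive cells given Pam3CSK4 and none was lower. Irak3, a kinase-like inhibitor of the pathway, was at 3.36 in Pam3CSK4 then Pam3CSK4 and 3.33 in Pam3CSK4 then MDP. It was at 1.89 in MDP then Pam3CSK4 and 1.58 in naive cells given Pam3CSK4. In the same order Myd88, the main adaptor, was at 0.85, 0.94, 1.10 and 0.93, past 2-fold only in MDP then Pam3CSK4.

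All 8 measured macrophage identity genes of 9 listed lay above the array median on every array. Their summed linear level was 102301 and 104055 in the Pam3CSK4-pretreated arrays and 91423 to 95620 in the other 5. Single genes differed more: Mertk, a receptor for apoptotic cells, was at -2.29 against unstimulated in naive cells given Pam3CSK4 and -1.79 in MDP then Pam3CSK4, the arrays where Tlr4 was lowest. Itgam, an integrin chain, was at 1.27 and Fcgr1, an antibody receptor, at 1.13 in Pam3CSK4 then Pam3CSK4. Some markers of other cells moved with the pretreatment. The summed linear level of the 7 measured neutrophil markers (8 listed) was 11919 and 12274 in the Pam3CSK4-pretreated arrays and 6749 to 7900 in the other 5. S100a8, S100a9 and Mmp8 carried the sum, with S100a8 1.10 above unstimulated in Pam3CSK4 then Pam3CSK4. In the same comparison the granule genes Ltf and Camp were at -1.16 and -0.26, and Mpo lay below the median of every array, at 5.17 to 5.50. The 6 measured B cell markers of 7 summed to 637 to 746 on the pretreated arrays and 1680 to 1809 on the naive ones. Ighm carried that sum, and Ms4a1 lay between 4.09 and 4.22. Cd79b went the other way, at 7.66 to 8.16 on the pretreated arrays and 7.16 to 7.58 on the naive ones. The 7 plasmacytoid and dendritic cell markers summed to 7693 to 11779 on the pretreated arrays and 4060 to 4720 on the naive ones. Bst2 carried that sum, and Siglech lay between 5.27 and 5.61. Against unstimulated, Tcf4 went the other way, at -0.78 in Pam3CSK4 then Pam3CSK4 and -0.79 in Pam3CSK4 then MDP. The 6 measured T and NK cell markers of 7 summed to 190 to 225, and the 5 stromal markers to 434 and 498 with Pam3CSK4 pretreatment and 239 to 256 elsewhere. Dcn carried that sum, at 1.56 over unstimulated in Pam3CSK4 then Pam3CSK4 and 1.87 in Pam3CSK4 then MDP, while the collagen gene Col1a1 lay between 4.72 and 4.91 on the 7 arrays. The 18S ribosomal RNA control probe sets stood 2.35 above unstimulated in Pam3CSK4 then Pam3CSK4 and 0.37 to 0.72 above it on the other stimulated arrays. The part of these values in the Tlr3, Tlr4 and Tlr8 differences was not tested.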

How the data were processed

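Per the submitters' processing notes, the authors made the deposited log2 expression values with RMA from the affy package, whose versions are not given in the sources used here. RMA corrects background, makes the distributions of arrays alike and summarises each probe set, so it can dampen shifts common to many genes. Which arrays were normalized together is likewise not given in the sources used here. The values, between 2.95 and 15.1 with array medians of 5.48 to 5.55, were used as deposited.

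Symbols came from the platform annotation. Of 45101 probe sets, 34945 carried exactly 1 symbol. The rest were 64 controls, 932 with several symbols and 9160 without any. Each of 18193 genes was given the probe set with the highest mean. All 10 members matched RefSeq by gene identifier. In 15 comparisons 1 array was set against 1, with thresholds of 3-fold against unstimulated cells and 2-fold elsewhere, and no test was possible. The replicate number 2 on every label does not say whether cultures came from separate animals. The fold calls were checked on a copy of 1 array with known folds and small noise added, which cannot show the spread between cultures. The members, lists and motifs were chosen with earlier results of these data known. All members are named. Of the pathway lists, counts are given with up to 4 genes past the fold in each direction. Genes named without being past it (Ly96, Unc93b1, Tlr12, Cd180) and the marker genes were picked after their values were seen. So was Myd88, which was past it only in MDP then Pam3CSK4. Python 3.11.15, numpy 2.4.6, pandas 2.3.3 and matplotlib 3.10.9 were used.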

Additional observations from a re-analysis of the deposited data

How the results depend on the processing

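No paired analysis was possible because each group is 1 array, all with the same replicate number, and no test was run. Of 900 recomputed member differences, under the mean of probe sets, no less specific probe sets, centring on medians or on housekeeping genes, 32 added to the linear values, or the higher array required to be above its median, 16 crossed a threshold or moved by over 1.5 times. None of the differences past a threshold changed sign, and 17 in all did. Of 210 recomputed counts of members, 188 stayed within 1.5 times. Centring on housekeeping genes changed none of the counts. The requirement on the higher array could change none, since all 10 chosen probe sets lay above the median on every array. The mean of probe sets could alter only Tlr3, Tlr4 and Tlr7, and leaving out less specific probe sets only Tlr3. These totals therefore include many values that could not move. Where a count moved, it did so as follows.

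With 2-fold in place of 3-fold against unstimulated, members higher were 4 (1 at 3-fold) in MDP then Pam3CSK4 and 4 (2) in Pam3CSK4 then Pam3CSK4, and members lower 1 (0) in Pam3CSK4 then MDP. With 3-fold in place of 2-fold, members lower were 0 (1 at 2-fold) for naive Pam3CSK4 over naive MDP and for MDP then MDP over naive MDP. Members higher were 0 (1) for Pam3CSK4 then MDP over naive MDP and for MDP then Pam3CSK4 over naive Pam3CSK4, 1 (2) for Pam3CSK4 then Pam3CSK4 over naive Pam3CSK4, 0 (2) for Pam3CSK4 then MDP over MDP then MDP, and 1 (3) for MDP then Pam3CSK4 over MDP then MDP.

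With the mean of probe sets, Tlr4 left the lower side in naive Pam3CSK4 and MDP then Pam3CSK4 over unstimulated and in naive Pam3CSK4 over naive MDP (-0.77), giving 0 in place of 1 each. The mean takes in 1430695_at, below the median on every array, at 0.04 and 0.07 in the comparisons with unstimulated. It also takes in 1442827_at, at -1.20 and -1.38 there. Why the probe sets differ was not tested. Members higher in Pam3CSK4 then MDP over MDP then MDP were 1 in place of 2 with that mean, without less specific probe sets, with median centring and with 32 added, since Tlr3 fell short (0.79, 0.55, 0.99 and 0.98). Without less specific probe sets, members higher were also 1 in place of 2 in Pam3CSK4 then MDP over unstimulated and 0 in place of 1 in MDP then Pam3CSK4 over naive Pam3CSK4, again through Tlr3. With median centring or 32 added, naive Pam3CSK4 over unstimulated had 1 in place of 2, through Tlr1. With median centring, members lower in Pam3CSK4 then Pam3CSK4 over MDP then Pam3CSK4 were 1 in place of 0, through Tlr2. Tlr6 was short of 2-fold in MDP then Pam3CSK4 over MDP then MDP (0.96) with 32 added.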
